A study of Mus musculus with 31 samples.

Results

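The cultured melanoma cells were used to ask which genes responded to a glucocorticoid (GC) through the glucocorticoid receptor (GR). For each gene, the log2 change with GC in cells lacking GR (GR KO) was subtracted from the log2 change with GC in parental cells. This interaction is the quantity tested, and genes that could not be tested are described by counts and bounds. All 11 *in vitro* samples of the 31 in the series entered the comparison, because together they hold both genotypes with and without drug under 1 set of culture conditions. The other 20 samples are tumors of the same lines, 5 for each genotype and treatment, from mice given a control treatment or 0.05% clobetasol propionate ointment on the skin 3 times a week, and serve here for 1 later comparison.

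The 20967 line comes from a melanoma of C57BL/6 mice that carried an inducible oncogenic *Nras* allele and a Cre recombinase driven by the tyrosinase promoter. The GR KO cells are a single clone obtained with a CRISPR-Cas9 ribonucleoprotein against *Nr3c1*, and a western blot by the authors showed loss of the protein. Cells of each genotype were kept for 48 hours with clobetasol propionate, the GC, or with its solvent DMSO. The article's methods, as a general rule, and the treatment field of the labels give the dose as 10 µM, while the library names and the design text of the series give 1 µM. Parental cells with DMSO, GR KO cells with DMSO and GR KO cells with GC had 3 cultures each, and parental cells with GC had 2.

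GR is a nuclear receptor that waits in the cytoplasm with heat shock proteins and, once it has bound a GC, moves to the nucleus and binds DNA near its target genes. Clobetasol propionate is a synthetic ligand of high potency made for use on skin. Many genes next to GR-bound enhancers respond in almost every cell type, while others respond only where chromatin is accessible, so the set of responding genes differs between tissues.

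Parental cells with DMSO had 15121571, 16743983 and 16648617 counts in cultures 1 to 3, and those with GC had 14441166 and 22463188. GR KO cells with DMSO had 18780474, 20120020 and 18633794 counts, and those with GC had 16866831, 21740716 and 17054739. A level of 3 counts, taken as the floor, was 0.134 CPM in the deepest culture and 0.208 CPM in the shallowest. Between 13832 and 14600 genes had at least 1 count per culture, and the 10 most abundant genes took 8.48 to 11.4% of the counts. For pairs of cultures of 1 group, the mean chi-square per gene lay between 8.26 and 119, so replicates differed by more than counting error. Pairs with parental DMSO culture 2 were at 65.4 and 77.3, against 8.26 for cultures 1 and 3. Pairs with GR KO GC culture 1 were at 69.9 and 119, against 30.3 for cultures 2 and 3. Intervals and floors given for single ratios cover counting error only. The p-values measure the spread between cultures, which may be technical: the library names carry the same RNA date for all 11 cultures and a letter for each replicate, and do not say whether the cells were grown apart.

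*Nr3c1* (ENSMUSG00000024431), the gene of GR, was at 33.2, 30 and 35.6 CPM in parental cells with DMSO and at 39.5 and 33.4 CPM with GC. The GR KO cultures had 24.8, 21 and 16.4 CPM with DMSO and 20.9, 22.5 and 13.1 CPM with GC. Its transcript was therefore lower in GR KO than in parental cells with DMSO, by a log2 difference of -0.67 (95% interval -1.14 to -0.19), and still present in each GR KO culture. Counts from the 3′ end of a transcript test neither the edited site nor the protein, so these values do not check the knockout. The interaction of *Nr3c1* was 0.29 (-0.43 to 1.00), with an adjusted p of 0.703 in edgeR's quasi-likelihood test, and no change of the receptor's transcript with GC was detected in either genotype.

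Markers of the melanocyte lineage went against the lineage that the labels name. Of 15 such genes, 8 had 0 counts in all 11 cultures: *Sox10*, *Tyr*, *Dct*, *Mlana*, *Kit*, *Slc45a2*, *Oca2* and *Gpr143*. The 15 together summed to 10.5, 10.8 and 12.4 CPM in the parental DMSO cultures and to 10.5 and 11.7 CPM in the parental GC cultures. Their sum in GR KO cells was smaller, 4.99, 3.34 and 4.95 CPM with DMSO, 5.53, 5.81 and 5.68 CPM with GC. Most of that sum was *Mitf*, a transcription factor of pigment cells that other cell types also use, at 3.01 to 11.7 CPM. Genes of fibroblasts and mesenchymal cells summed to 178 to 302 CPM in parental cultures and 68.2 to 97.4 CPM in GR KO cultures, with the collagen gene *Col3a1* the most abundant of them. Immune markers summed to at most 2.28 CPM, endothelial markers to at most 4.69 CPM and keratinocyte markers to at most 5.39 CPM. A pigment cell identity was thus not visible in the RNA, and the cultures are called 20967 cells from here on. In bulk RNA, fewer cells with a transcript and less of it per cell cannot be told apart.

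Of 12525 genes tested, 37 had an interaction past the threshold, or 0.295%, with 28 higher (0.224%) and 9 lower (0.0719%) in the direction of GC in parental cells. The median interaction over all genes tested was -0.03. An unadjusted p under 0.05 was found for 1075 genes (8.58%). That count depended on single cultures: it was 2722 without GR KO GC culture 1 and 708 without GR KO GC culture 3. Among the 28 the median was 2.22, with a range of 0.92 to 5.81 apart from *Ptprf*, whose fitted 6.13 rests on a group without counts, and among the 9 it was -1.50, with a range of -1.12 to -3.41. The GC effect within GR KO cells was close to 0 for these genes, with medians of 0.07 for the 28 and 0.20 for the 9, and 31 of the 37 had an effect smaller than 0.3 in size. Its 95% interval included 0 for 33 of the 37. The exceptions were *Rgs2*, *Ctla2a*, *Zfp697* and *Ptprf*, all with a lower level in GR KO cells given GC. Over all genes, that interval excluded 0 for 237, or 1.89%. Both parental cultures with GC lay above the other 9 for 27 of the 28 higher genes and below them for 7 of the 9 lower genes. Across all tested genes the same held for 563 (4.50%) and 450 (3.59%). The 37 genes were selected on these same cultures, so this separation describes them and adds no support. Of the 37 calls, 15 held in all 18 alternative fits, and 13 were lost in at least 9 of the 11 fits that leave out 1 culture. The knockout is 1 clone, so loss of GR and other differences between the clone and its parent cannot be told apart in any of these results.

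**Figure D1:**
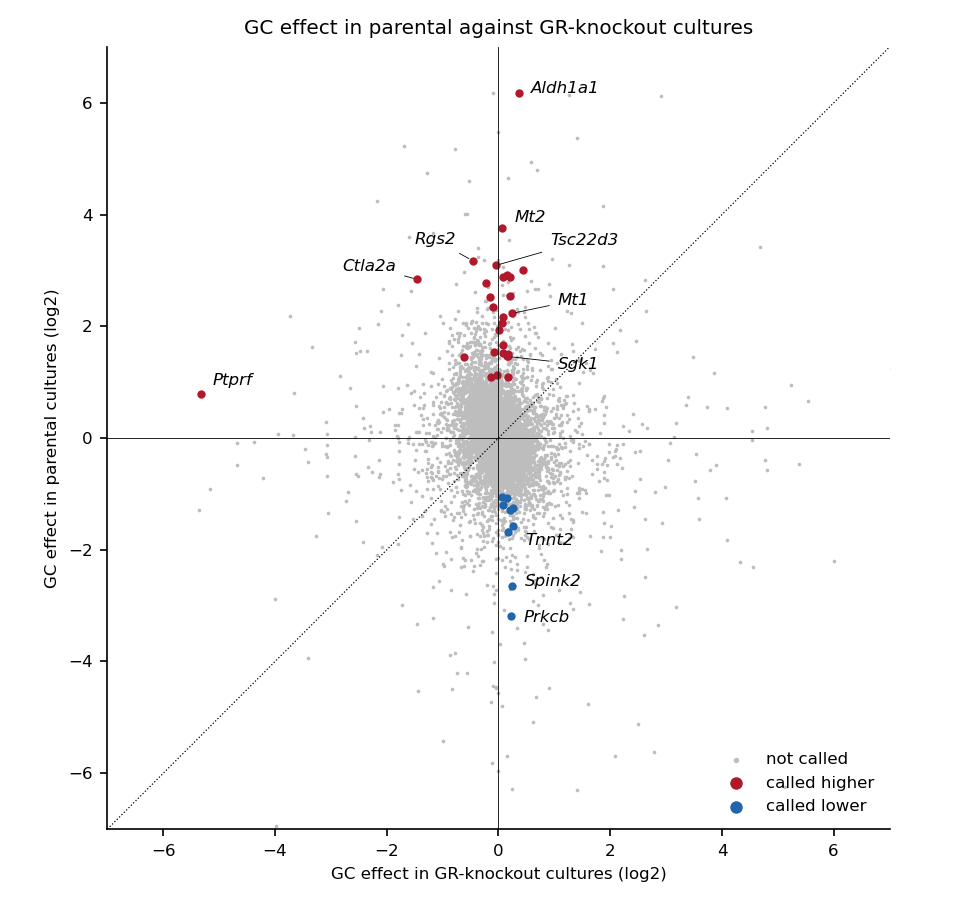
Each point is a tested gene, with its log2 change with GC in GR KO cells on the horizontal axis and in parental cells on the vertical axis. The 37 genes past the interaction threshold are colored, and values outside the axes are not drawn. The colored genes spread along the vertical axis and mostly lie near 0 on the horizontal one, where 31 of the 37 are within 0.3 of 0.

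Several direct GR targets known from other cell types were among the 37 genes. *Tsc22d3* encodes GILZ, a leucine zipper protein that binds and restrains NF-κB and AP-1. It was at 14.5, 10.6 and 15.4 CPM in parental cells with DMSO and at 116 and 114 CPM with GC, against 15.9, 18.2 and 19.5 CPM in GR KO cells with DMSO and 20.5, 14.5 and 17 CPM with GC. Its interaction was 3.14 (95% interval 2.55 to 3.72, edgeR adjusted p 0.000332), and the GC effect in GR KO cells was -0.05 (-0.44 to 0.34). *Per1*, a repressor in the circadian clock with GR sites near its promoter, had 7.09, 3.88 and 5.46 CPM in parental cells with DMSO and 37 and 37.9 CPM with GC. In GR KO cells it had 7.53, 6.63 and 4.47 CPM with DMSO and 5.53, 5.25 and 5.11 CPM with GC, for an interaction of 3.00 (2.19 to 3.82, adjusted p 0.00415). The other 16 tested clock genes had no call, but 0.295% of all genes were called, so this count says little about them.

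*Rgs2* and *Sgk1* are also on the list of classic GC-induced genes. *Rgs2* encodes a protein that shortens signaling from Gq-coupled receptors, and it was at 14.1, 7.94 and 10.3 CPM in parental cells with DMSO and at 98 and 96.6 CPM with GC. In GR KO cells it was at 7.12, 6.01 and 6.08 CPM with DMSO and 4.56, 5.11 and 4.23 CPM with GC. The interaction of 3.64 (2.98 to 4.29, adjusted p 0.000332) therefore includes a GC effect of -0.46 (-0.91 to -0.01) in the cells without the receptor. *Sgk1* encodes a kinase that raises sodium transport and phosphorylates FOXO factors. It went from 138, 164 and 139 CPM to 400 and 411 CPM with GC in parental cells and stayed between 111 and 140 CPM in the 6 GR KO cultures, with an interaction of 1.30 (0.90 to 1.70, adjusted p 0.00927). The *Sgk1* call was lost when either parental GC culture was left out, at adjusted p-values of 0.0688 and 0.0871, and when parental DMSO culture 1 was left out, at 0.0529.

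Among other classic GC-induced genes, *Klf9*, *Glul*, *Fkbp5* and *Cebpd* were not among the 37, but their calls depended on the setting. All 4 were called by DESeq2, and *Klf9* and *Glul* by limma-voom. In edgeR itself *Klf9*, *Glul* and *Fkbp5* were called without a filter, *Glul* also with the filter at 2 CPM or DESeq2 size factors, *Klf9* also with the replicate block, and *Klf9* and *Cebpd* without GR KO GC culture 1 (adjusted p 0.0049 and 0.0471). *Klf9*, a Krüppel-like repressor, was at 28.6 to 46 CPM in parental cells with DMSO, 161 and 125 CPM with GC and 37.3 to 81.1 CPM in GR KO cells, and its interaction of 2.14 had an adjusted p of 0.0523. *Glul*, glutamine synthetase, had 30.4 to 36.6 CPM, then 60 and 72.4 CPM with GC, against 23.1 to 33.1 CPM in GR KO cells, with an interaction of 1.24 and an adjusted p of 0.0514, the smallest among genes not called. *Fkbp5*, the FK506-binding cochaperone that lowers the affinity of GR for hormone, varied widely between replicates. Its parental cultures had 47, 16.8 and 37.3 CPM with DMSO and 200 and 138 CPM with GC, and its 6 GR KO cultures had 15.8 to 46.8 CPM. The interaction of *Fkbp5*, 2.72 (1.47 to 3.96), was thus large but uncertain, with an adjusted p of 0.102. *Cebpd*, an acute-phase transcription factor, had 22 to 27.8 CPM with DMSO and 62.8 and 56.9 CPM with GC in parental cells, 11.1 to 16.7 CPM in GR KO cells and an adjusted p of 0.178. *Dusp1*, a MAPK phosphatase, varied widely between replicates: parental cells had 16, 3.2 and 16 CPM with DMSO and 27.5 and 22.6 CPM with GC, and GR KO cells with GC spanned 8.58 to 44.8 CPM. Its interaction was 1.53 (-0.42 to 3.48), with an adjusted p of 0.576.

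*Zbtb16* encodes PLZF, a zinc finger repressor that GCs induce from silence in many tissues. It had 0 counts in all 9 cultures other than the parental ones with GC, which had 137 and 221 counts, or 9.45 and 9.99 CPM. This is at least 159-fold higher than in parental cells with DMSO, against a floor of 3 counts over that group. The filter asks for expression in 3 samples, so a gene present only in the group of 2 cultures was not tested.

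Metallothioneins, small zinc- and copper-binding proteins whose genes lie side by side on chromosome 8, gave the interaction with the smallest p-value. *Mt2* was at 205, 175 and 241 CPM in parental cells with DMSO and at 2970 and 2630 CPM with GC. In GR KO cells it was at 340, 375 and 324 CPM with DMSO and at 418, 342 and 323 CPM with GC, so its starting level was higher without GR, by 0.74 (0.41 to 1.07), and GC changed it by 0.06 (-0.27 to 0.39). The interaction was 3.70 (3.20 to 4.19, edgeR adjusted p 3.48e-05). *Mt1* started higher, at 756, 866 and 785 CPM, reached 3430 and 4100 CPM with GC in parental cells, and was at 906, 854 and 1050 CPM with DMSO and 820, 1120 and 1370 CPM with GC in GR KO cells. Its interaction was 2.00, smaller than that of *Mt2*, with an adjusted p of 0.00585 that became 0.0599 without parental GC culture 2. The zinc exporter *Slc30a1*, which responds to free zinc together with the metallothioneins, had an interaction of 0.55 that did not pass. *Gclc*, the catalytic subunit that makes glutathione's precursor, also passed: it was at 20.8 to 24.3 CPM, then at 69.3 and 62.2 CPM with GC in parental cells and at 38.4 to 43.3 CPM in GR KO cells, with an interaction of 1.61 (adjusted p 0.00275).

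Genes of retinoid handling passed in both directions. *Aldh1a1*, which oxidizes retinal to retinoic acid, was nearly absent from parental cells with DMSO, at 0.781, 0 and 0.47 CPM, and was at 31.5 and 29 CPM with GC. GR KO cells held a low level in either treatment, 3.43, 2.77 and 3.61 CPM with DMSO and 2.91, 4.92 and 4.73 CPM with GC. The interaction was 5.81 (4.12 to 7.50, adjusted p 0.00585), and the GC effect in GR KO cells was 0.36 (-0.67 to 1.39). *Crabp1* encodes the cytoplasmic protein that binds retinoic acid. It was lower with GC in parental cells, from 138, 186 and 134 CPM to 49.9 and 52.1 CPM, and in GR KO cells it was already low, at 55.4, 50.4 and 72.9 CPM with DMSO and 53.8, 70.7 and 90.8 CPM with GC. Its interaction was -1.85 (-2.55 to -1.15, adjusted p 0.041), and 9 of the 11 fits that leave out a culture lost the call. The retinol dehydrogenase *Dhrs9*, at 1.94, and the enzyme *Cyp26b1* that degrades retinoic acid, at 1.86, had adjusted p-values of 0.0964 and 0.116. DESeq2 called both, as did edgeR without a filter, and edgeR with the replicate block called *Cyp26b1* (adjusted p 0.0286). Of 14 retinoid genes tested, 6 had an unadjusted p under 0.05, a share that was 8.58% over all genes, and between 1 and 4 were called across the alternatives.

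*Adam12*, a membrane-bound disintegrin and metalloprotease, was at 11.2, 5.85 and 8.87 CPM in parental cells with DMSO and 66.7 and 60.5 CPM with GC, against 18.3, 20 and 18.8 CPM and 22.3, 22.4 and 16 CPM in GR KO cells. Its interaction was 2.79 (2.08 to 3.51, adjusted p 0.00339). *Adamts1*, a secreted protease that cleaves proteoglycans, was at no more than 21.1 CPM, then 75.7 and 68.6 CPM with GC and 21 to 26 CPM in GR KO cells, with an interaction of 1.91. *Timp3*, which encodes a metalloprotease inhibitor, was at 470, 520 and 499 CPM with DMSO and 223 and 252 CPM with GC in parental cells, and at 355, 363 and 366 CPM and 325, 389 and 416 CPM in GR KO cells. The *Timp3* interaction was -1.12 (-1.53 to -0.72, adjusted p 0.0322), and 9 of the 11 fits with a culture left out lost the call.

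*Ctla2a* encodes a cathepsin inhibitor that resembles the propeptide of cathepsins. In parental cells it was at 16.9, 21.5 and 18.3 CPM with DMSO and 131 and 140 CPM with GC. In GR KO cells it was close to the floor, at 1.19, 0.525 and 1.51 CPM with DMSO and 0.571, 0.331 and 0.252 CPM with GC. The interaction of 4.29 (3.24 to 5.34, adjusted p 0.00275) thus adds a difference of -1.45 (-2.33 to -0.58) at very low levels in GR KO cells to the response of parental cells. *Spink2*, a serine protease inhibitor, passed in the other direction. It was at 13.5, 13.4 and 10.5 CPM with DMSO and at 1.59 and 2.35 CPM with GC in parental cells, while GR KO cells had 3.69, 4.77 and 3.34 CPM and 4.17, 4.25 and 5.55 CPM. Its interaction was -2.88 (-3.75 to -2.01, adjusted p 0.00785), or -2.64 with an adjusted p of 0.0958 without parental GC culture 1.

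Among enzymes that crosslink the matrix, *Lox*, lysyl oxidase, was at 332 to 400 CPM with DMSO, 931 and 1100 CPM with GC and 660 to 915 CPM in GR KO cells. *Tgm2*, a transglutaminase, was at 82.1 to 102 CPM, 234 and 263 CPM with GC and 46.8 to 69.9 CPM in GR KO cells. Each had an interaction of 1.33, with adjusted p-values of 0.0322 for *Lox* and 0.0465 for *Tgm2*, and the calls were lost in 8 and 9 of the 11 fits with a culture left out. Of the surface and junction proteins, *Ppl*, the desmosomal plakin periplakin, was at 2.21, 1.72 and 3.29 CPM and then 20.4 and 16.2 CPM with GC in parental cells. It was at 4.67, 6.21 and 3.02 CPM and 4.85, 5.11 and 5.55 CPM in GR KO cells, with an interaction of 2.76 (1.76 to 3.76, adjusted p 0.0322) whose call was lost in 9 of those fits. *Msln*, mesothelin, was at 4.82 to 7.02 CPM with DMSO and 25 and 26.1 CPM with GC in parental cells, but GR KO cells already had 23.8 to 31.1 CPM. Its interaction of 2.00 was the single one among the 28 whose parental cultures with GC did not lie above the other 9.

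A pair of receptors for contacts outside the cell had negative interactions. *Itga7*, a laminin-binding integrin subunit of muscle, was at 17.6, 23.5 and 21.3 CPM with DMSO and 10.8 and 9 CPM with GC in parental cells, and at 58, 53.7 and 53.4 CPM and 63.6, 59.1 and 60.8 CPM in GR KO cells. Its interaction was -1.23 (-1.70 to -0.76, adjusted p 0.0424). *Tenm4*, a teneurin that links neighboring cells, was at 99.4, 81.7 and 78 CPM with DMSO and 34.4 and 36.5 CPM with GC in parental cells. GR KO cells had less of it in every culture, 11.8, 13 and 14.5 CPM with DMSO and 13.3, 15.3 and 16.7 CPM with GC. Its interaction was -1.49 (-1.98 to -0.99, adjusted p 0.0181). Of the 11 fits with a culture left out, 10 lost the *Itga7* call and 6 the *Tenm4* call.

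*Prkcb*, protein kinase C beta, had the most negative interaction among the 37 called genes, -3.41 (-4.32 to -2.50, adjusted p 0.00415). It was at 9.89, 8.81 and 9.87 CPM in parental cells with DMSO and at 1.1 and 0.994 CPM with GC, against 6.08, 5.97 and 3.82 CPM and 5.31, 5.48 and 7.83 CPM in GR KO cells. Without parental GC culture 2 the estimate for *Prkcb* was -3.33 with an adjusted p of 0.0537. *Adra1b*, a Gq-coupled adrenergic receptor whose signal RGS2 can shorten, was at 7.35, 4.74 and 8.11 CPM with DMSO and 47 and 60.9 CPM with GC in parental cells. In GR KO cells it was at 4.41, 4.58 and 4.85 CPM and then 5.71, 6.38 and 6.75 CPM, with an interaction of 2.56 (1.87 to 3.25, adjusted p 0.00415), or 2.36 with an adjusted p of 0.0511 without parental GC culture 2. *Sphk1*, which makes sphingosine-1-phosphate, had 6.77 to 11.6 CPM, then 46.5 and 50.3 CPM with GC and 13.1 to 15.4 CPM in GR KO cells, for an interaction of 2.45. The scaffold of kinases A and C encoded by *Akap12* had an interaction of 2.09, and *Syk*, a tyrosine kinase of immune receptors, had one of 1.23. Of the 11 fits with a culture left out, 9 lost the *Akap12* call and all 11 the *Syk* call.

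*Sorbs2* and *Ptprf* bear on the cytoskeleton and cell contacts. *Sorbs2*, an adaptor at stress fibers and Z-disks, was at 15.6, 16.8 and 12 CPM and then 90.9 and 78.3 CPM with GC in parental cells, and at 35.6, 35.5 and 30.5 CPM and 28.9, 30.7 and 32.4 CPM in GR KO cells. Its interaction was 2.66 (2.16 to 3.16, adjusted p 0.000332). *Ptprf* encodes LAR, a receptor phosphatase at cell junctions. It was at 6.96, 6.47 and 5.76 CPM with DMSO and 11.7 and 10.6 CPM with GC in parental cells, but had only 16 counts in GR KO cells with DMSO and 0 with GC. Its fitted interaction of 6.13 therefore rests on a group without counts. Against a floor of 3 counts over the group, the level with GC in GR KO cells was at least 4.9-fold lower than with DMSO and the interaction was at least 3.09. The *Ptprf* call, at an adjusted p of 0.0322, was lost with limma-voom, with the replicate block and in 10 of the 11 fits with a culture left out.

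*Tnnt2*, cardiac troponin T, was at 36.3, 44.6 and 39.4 CPM with DMSO and 13.2 and 11.8 CPM with GC in parental cells, and at 64.4, 58.2 and 68 CPM and 63.7, 73.1 and 78.6 CPM in GR KO cells. Its interaction was -1.86 (-2.32 to -1.41, adjusted p 0.00275), and it was the 1 gene of the 9 that passed under all 18 alternatives. *Id2*, an inhibitor of basic helix-loop-helix factors and a target of BMP signaling, was at 255, 290 and 302 CPM and then 109 and 128 CPM with GC in parental cells. Its GR KO levels were 180, 173 and 204 CPM with DMSO and 160, 239 and 264 CPM with GC, for an interaction of -1.50 (-2.08 to -0.92, adjusted p 0.0465). *Lbh*, a transcriptional regulator of limb and heart, was at 119, 116 and 106 CPM and then 53.6 and 46.1 CPM with GC, against 98.5, 80.1 and 90.6 CPM and 78.9, 95.8 and 112 CPM in GR KO cells. Its interaction was -1.28 (-1.77 to -0.79, adjusted p 0.0415), and both *Id2* and *Lbh* lost the call in 10 of the 11 fits with a culture left out.

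The remaining higher genes share no single role. *M1ap*, a gene of male meiosis, was at 28.5, 23 and 24.8 CPM and then 182 and 194 CPM with GC in parental cells, and at 17.3, 11.6 and 17.7 CPM and 18, 18.1 and 17.9 CPM in GR KO cells, with an interaction of 2.67 (2.14 to 3.21, adjusted p 0.000552). *Fam46b*, a poly(A) polymerase, had an interaction of 2.35, the zinc finger gene *Zfp697* 2.07 and the calcium channel subunit gene *Tmem37* 1.16. *Ly6a* (Sca-1) and *Ly6c1*, neighboring genes of small surface proteins, were at 108 to 119 and 20.6 to 24.5 CPM with DMSO and rose to 319 and 330 CPM and to 75.9 and 67.6 CPM with GC in parental cells. In GR KO cells they were at 34.8 to 46.5 and 3.72 to 6.03 CPM, and their interactions were 1.45 and 1.58. The *Ly6c1* call, at an edgeR adjusted p of 0.0499, was lost with limma-voom, with the replicate block and in 10 of the 11 fits with a culture left out. *Klra4*, of a natural killer cell receptor family, had the smallest interaction of the called genes, 0.92. The *Zfp697* and *Klra4* calls were each lost in 9 of the 11 fits with a culture left out.

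**Figure D2:**
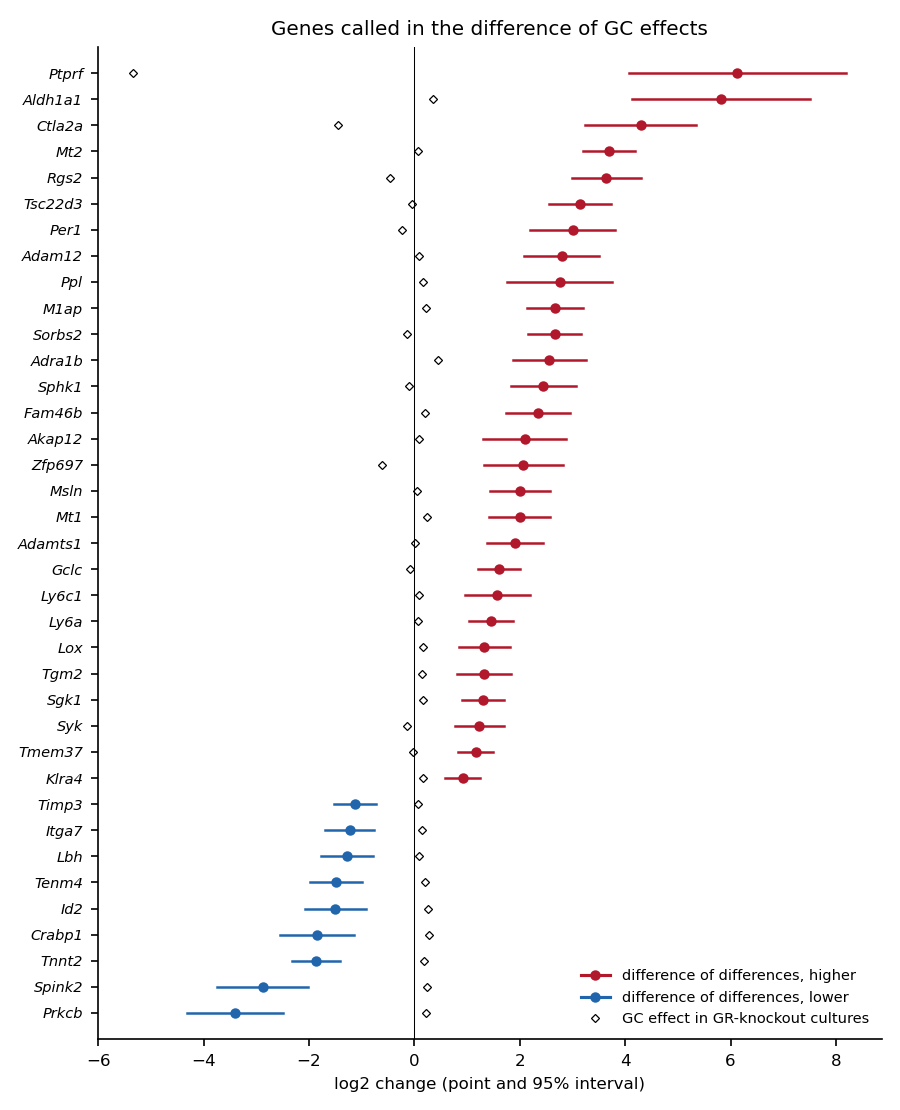
The interaction in log2 units with its 95% interval is drawn for each of the 37 genes past the threshold, beside the GC effect in GR KO cells. Interactions run from a fitted 6.13 for *Ptprf*, which has a group without counts, to -3.41 for *Prkcb*, while 33 of the 37 intervals of the effect in GR KO cells include 0.

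**Figure D3:**
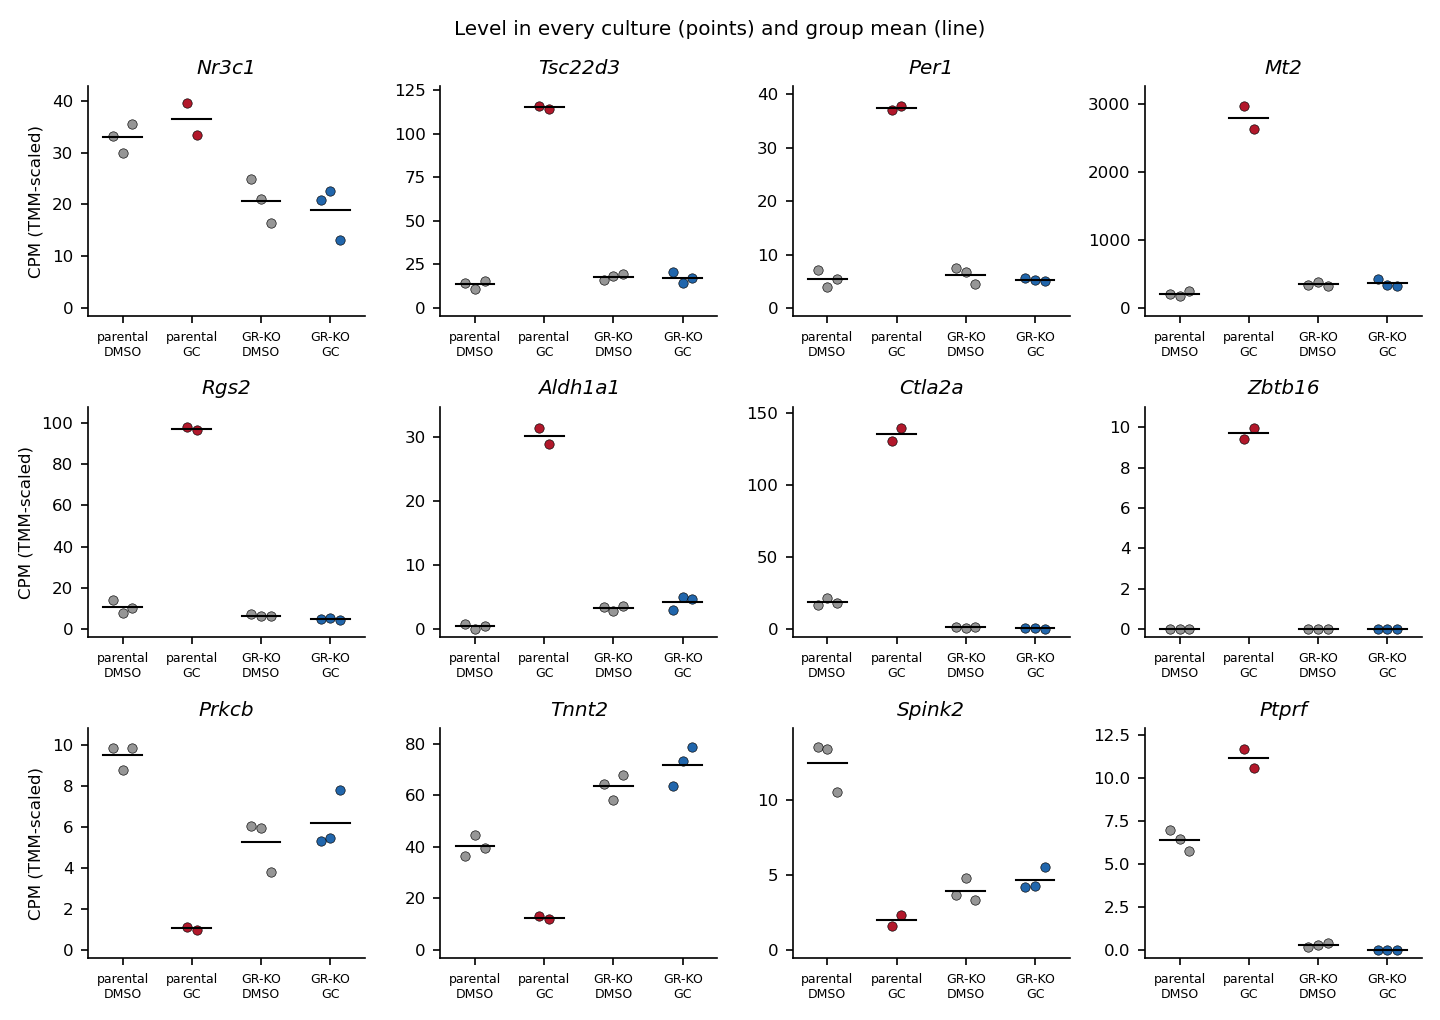
The level in CPM, on a linear scale, is shown for 12 genes in each of the 11 cultures, grouped by genotype and treatment. *Mt2* is at 2970 and 2630 CPM in parental cells with GC and at no more than 418 CPM in the other 9 cultures, and *Prkcb* is at 1.1 and 0.994 CPM against at least 3.82 CPM.

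The 6 genes next in order of adjusted p include *Glul* and *Klf9*. *Trnp1*, a nuclear protein of neural progenitors, had an interaction of 1.46 with an adjusted p of 0.0520. *Ncam1*, a neural adhesion molecule, was at 277 to 283 CPM with DMSO and 561 and 551 CPM with GC in parental cells and at 300 to 390 CPM in GR KO cells, with an interaction of 1.01. The axon guidance gene *Sema5a* had an interaction of -1.16, and both had an adjusted p of 0.0523. DESeq2 and limma-voom called all 3 of these genes, as did edgeR with the filter at 2 CPM for *Trnp1* and without a filter for *Ncam1* and *Sema5a*. *Slc40a1*, the iron exporter ferroportin, had 79 counts in parental cells with DMSO and 3 with GC, a ratio of 0.0505 with a counting interval of 0.0102 to 0.153, and its interaction of -3.65 had an adjusted p of 0.0544, with a call in DESeq2 and in edgeR with the filter at 2 CPM. Farther from the threshold, *Lrrc32*, which encodes GARP, the surface protein that holds latent TGF-β, was at 24.2, 14 and 18.9 CPM with DMSO and 5.52 and 5.24 CPM with GC in parental cells. GR KO cells had little of it in either treatment, 3.53, 1.1 and 2.91 CPM with DMSO and 1.71, 1.23 and 1.83 CPM with GC. The *Lrrc32* interaction was -1.16 (-2.41 to 0.09), with an adjusted p of 0.576, so the difference between the drug effects was not resolved at these levels.

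Groups of genes with a shared role were compared by their median interaction beside that of all genes, -0.03. The 22 tested of 30 classic GC-induced genes had a median of 1.10, with 4 called, all higher, against 0.295% called over all genes. Alternatives called 3 to 8 of them, with 8 in DESeq2, 6 without GR KO GC culture 1 and 3 without either parental GC culture or parental DMSO culture 1. Another list holds genes that the article names as responding to GC both in culture and in tumors, *Lrrc32* among them. It had a median of 2.14 over 21 of 25, or 2.35 with *Scara5* and *Ccdc3* at the bound set by the floor. Of these, 9 were called, or 7 to 14 across the alternatives, but they were chosen on these samples and are not independent evidence. Metallothioneins and zinc handling genes had a median of 0.55 over 14 of 17, with only *Mt1* and *Mt2* called. The 18 tested of 22 Krüppel-like and C/EBP factors had a median of 0.39 with 0 called by edgeR, 5 genes at an unadjusted p under 0.05 and up to 2 called under an alternative. Median interactions of the receptor's chaperones and coregulators (-0.22 over 23 of 26) and of clock genes (0.03 over 17 of 20) were nearer 0. edgeR called 0 of those chaperones and coregulators, with 2 at an unadjusted p under 0.05 and at most 1 called under any alternative. *Fkbp4*, at -0.62, had an adjusted p of 0.532.

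Lists for other pathways had medians from -0.38 to 0.22. Ligands, latency proteins and receptors of TGF-β had a median of -0.02 over 18 of 20, with 0 called by edgeR or any other tool and 2 at an unadjusted p under 0.05. Targets of TGF-β and BMP had a median of -0.03 over 21 of 24, with *Id2* the called member, while *Id1*, at 1.36, had an adjusted p of 0.374. Inflammatory and NF-κB genes had a median of 0.22 over 17 of 30, or 0.05 with genes at the floor set to their bound, with 0 called by edgeR or any other tool and 4 at an unadjusted p under 0.05. That median is not stable: it was 0.66 without GR KO GC culture 1, 0.38 without GR KO DMSO culture 3, -0.06 without GR KO DMSO culture 2, -0.04 without GR KO GC culture 2 and -0.01 without parental GC culture 1, and lay from 0 to 0.31 in the other alternatives. MAPK feedback and immediate-early genes had a median of -0.16 over 28, again with 0 called by edgeR or any other tool and 5 at an unadjusted p under 0.05. Protein kinase C and RGS genes had a median of -0.12 over 15 of 24, with *Rgs2* and *Prkcb* called in opposite directions. The retinoid genes had a median of -0.38 over 14 of 20, with *Aldh1a1* and *Crabp1* called. Brakes on insulin, mTOR and FOXO signaling had a median of -0.14 over 25 of 27, with 0 called by edgeR, 8 at an unadjusted p under 0.05 and at most 1 called under any alternative. Its member *Deptor*, an mTOR inhibitor, had an interaction of 1.17 with an adjusted p of 0.210. Cell cycle genes had a median of 0.12 over 25 of 26, with 0 called by edgeR or any other tool and 5 at an unadjusted p under 0.05. Of the cell markers, 6 of 8 fibroblast genes were tested (median -0.23), 2 of 15 melanocyte genes (-0.46, or -3.12 to 0.03 across alternatives), 1 endothelial and 1 keratinocyte gene (*Kdr* and *Krt10*) and 0 of 11 immune genes. *Kdr* had an interaction of 2.10 (0.71 to 3.50), while that of *Krt10* was not resolved, with an interval of -1.10 to 4.10. edgeR called 0 of these 10, nor did any other tool, and *Kdr* was the 1 with an unadjusted p under 0.05. A count of 0 does not exclude smaller interactions.

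*Zbtb16* was not alone in being seen only where drug and receptor met. In total, 36 genes reached 0.5 CPM in both parental cultures with GC and in no other culture, and 0 of them could be tested under the filter of 3 samples. The same pattern occurred for 17 genes in the 3 parental cultures with DMSO, for 3 in GR KO cells with DMSO and for 1 in GR KO cells with GC, groups in which 3 cultures had to pass. Of the 36, 9 had 0 counts in the other 9 cultures, and those named here other than *Zbtb16* were chosen after their values were seen. *Sult1a1*, a sulfotransferase, had 79 and 81 counts, at least 70.9-fold above parental cells with DMSO. The acute-phase and transport proteins *Serpina3m*, *Lcn2* and *Orm1*, which the liver secretes in inflammation, had 22 and 46, 31 and 31, and 34 and 21 counts, at least 30.1-fold, 27.4-fold and 24.3-fold higher. The flavin monooxygenase *Fmo2* was at least 15.9-fold higher, the phosphatase *Acp5* at least 21.7-fold and *Fam107a*, an actin-binding stress protein, at least 12.8-fold. *Dpep1*, a dipeptidase, had 32 counts in each parental culture with GC and 0 with DMSO, but also 0, 5 and 8 counts in GR KO cells with GC. A filter of 2 samples, added after the data were seen, lets these genes into the fit, but with 0 counts in both GR KO groups the test cannot give a call: *Zbtb16* had an adjusted p of 1, which says nothing about its interaction.

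Parental and GR KO cells also differed without drug. With DMSO, the 95% interval of the GR KO minus parental difference excluded 0 for 3037 genes, or 24.2%. Among the 37 genes with an interaction it did so for 32, of which 17 started higher and 15 lower in GR KO cells. *Aldh1a1* started higher by 2.96 (1.69 to 4.24) and *Msln* by 2.17, while *Ctla2a* started lower by -4.14 and *Tenm4* by -2.72. An interaction on the log2 scale therefore compares responses from unequal starting levels.

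The interaction was also compared between the cultures and the tumors, in which the same lines grew in mice. Of 16273 genes tested over all 31 samples, 16 differed, or 0.0983%, with 9 higher and 7 lower in culture, and 2654 had an unadjusted p under 0.05. DESeq2 called 168, with 31 higher and 137 lower in culture, so the count and the balance of directions depend on the tool. Of the 37 culture genes, 10 were among the 16, but the same culture values selected the 37 and enter this contrast, so a larger interaction in culture than in tumors is partly built in. The interaction within tumors had a median of 0.38 for the 28 higher genes and 0.06 for the 9 lower ones, and its 95% interval included 0 for 24 of the 37, against 76.9% of all genes. *Mt2* had an interaction of 1.11 (0.67 to 1.55) in tumors and a culture minus tumor difference of 2.63 (edgeR adjusted p 0.000338). Its tumor levels had medians of 308 CPM in parental control tumors, 1060 with GC, 328 in GR KO control tumors and 491 with GC, 5 tumors each. *Mt1*, by contrast, had 1.93 in tumors and a difference of 0.11. For *Ctla2a* the tumor interaction was 0.80 and the difference 3.54 (adjusted p 0.000338), and for *Sorbs2* they were -0.37 and 3.08 (adjusted p 0.000638). *Timp3* and *Adamts1* also differed, by -2.22 and 2.45 (edgeR adjusted p 0.0136 and 0.00266). Their tumor intervals lay on the other side of 0 from culture, at 1.14 (0.64 to 1.64) and -0.50 (-0.99 to -0.02).

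*Prkcb* had the difference with the smallest p-value, -3.53 (edgeR adjusted p 3.35e-05), with a tumor interaction of 0.16 (-0.29 to 0.62). Its tumor medians of 111, 103, 97.1 and 87.8 CPM in the same order of groups were far above the 10.1 CPM or less of the cultures on the same scale. *Sbsn*, a gene of the skin's suprabasal layer, differed by -3.33 (adjusted p 0.00122) and was at medians of 243 to 391 CPM in tumors and at most 6.97 CPM in cultures. *Kcnab2*, a potassium channel subunit, had a fitted difference of -5.34 (adjusted p 0.0109), with tumor medians of 22.4 to 36.8 CPM and 0.437 CPM or less in GR KO cultures, so that its fitted value rests on very few counts and ran from -7.21 to -4.71 across alternatives. *Kcnab2* had 1 count in GR KO cells with DMSO and 19 with GC, a ratio of 0.0488 with a counting interval of 0.00117 to 0.307. With the group under the floor put at 3 counts, its culture interaction was -3.20 in place of the fitted -4.37, so the size of the difference is not fixed by these counts. Tumors hold host cells that cultures lack. Keratinocyte markers summed to medians of 1290 CPM in parental control tumors, 1860 with GC, 3110 in GR KO control tumors and 1570 with GC, against at most 5.39 CPM in cultures. *Sbsn* had medians of 271, 391, 342 and 243 CPM in the same order, so both medians were higher with GC in parental tumors and lower with GC in GR KO tumors, although the keratinocyte sums of parental tumors overlapped, at 1140 to 2990 CPM in controls and 1560 to 1910 CPM with GC. The keratinocyte sums of GR KO tumors did not overlap, at 1920 to 3710 CPM in controls and 1090 to 1890 CPM with GC. Endothelial markers were lower with GC without overlap in both genotypes, at 43.5 to 69.8 and 23.3 to 38.1 CPM in parental tumors and 88 to 109 and 42.9 to 52.7 CPM in GR KO tumors. Fibroblast markers had medians of 6950, 10700, 4560 and 9910 CPM, and immune markers 1190, 1500, 1680 and 1290 CPM. The fibroblast sums were higher with GC without overlap in both genotypes. They were at 6710 to 7530 and 7550 to 10900 CPM in parental tumors and 3670 to 6970 and 7240 to 11300 CPM in GR KO tumors. The immune sums overlapped in both genotypes. How far host cells carry the differences between culture and tumor was not tested, and the treatments also differed in dose, route and duration.

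**Figure D4:**
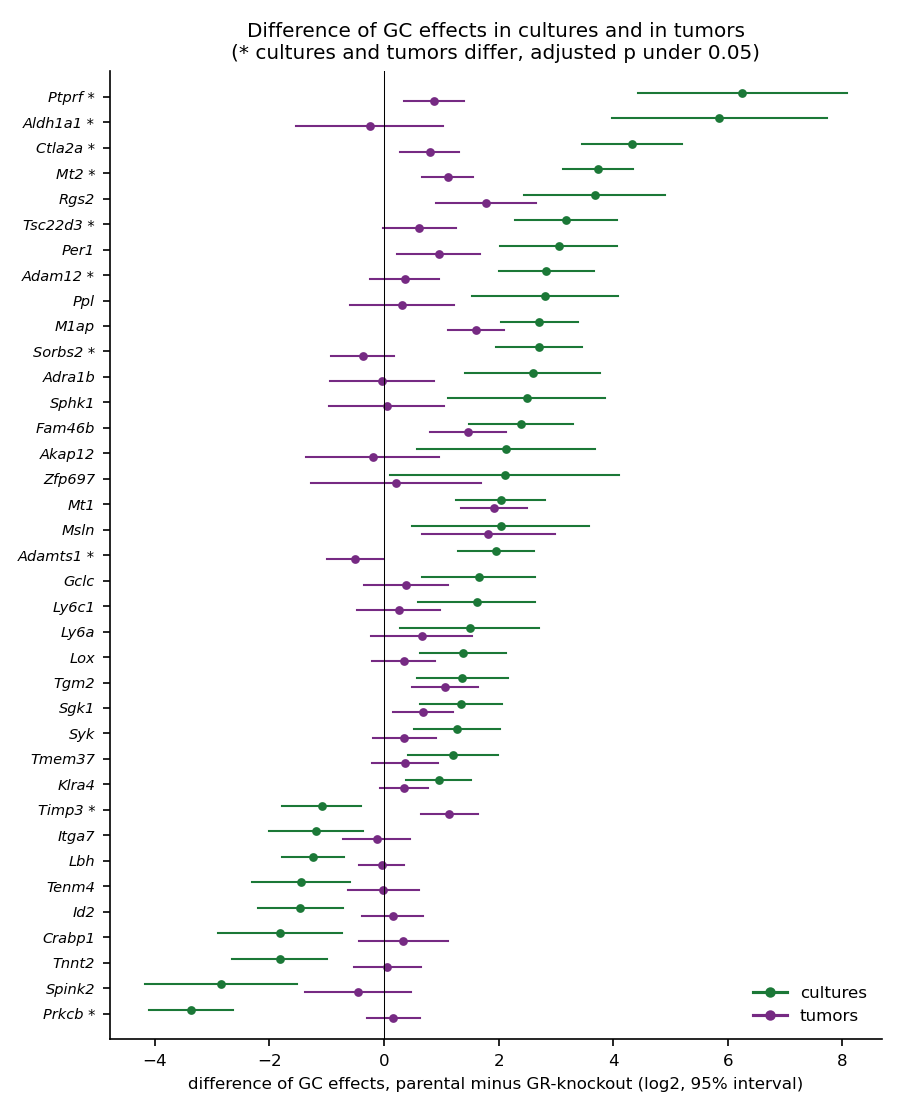
The interaction in cultures and in tumors is shown in log2 units with 95% intervals for the 37 genes, with an asterisk on those whose culture and tumor values differ past the threshold. Asterisks mark 10 of the 37, and the tumor interval includes 0 for 24.

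Promoters of the 37 genes were searched for the sequence that a GR dimer binds, AGAACA and TGTTCT with any 3 bases between them, which reads the same on both strands, and for its core, ACA and TGT with the same spacing. RefSeq promoters of 300 bases on GRCm38.p6 were available for 28 of the genes and missing for *Adam12*, *Akap12*, *Gclc*, *Itga7*, *Lox*, *Ly6a*, *Msln*, *Ppl* and *Tgm2*. The full sequence occurs in 3 of 32851 promoters (0.00913%), and 1 of those 3 belongs to *Sgk1*, among 39 promoters of higher genes (2.56%) and 12 of lower genes with 0. The core occurs in 6.85% of all promoters and in 7 of the 39 (17.9%), which belong to *Ctla2a*, *Mt1*, *Sgk1* and *Sorbs2*. It also occurs in 1 of the 12 (8.33%), that of *Crabp1*. The *Ctla2a* promoters overlap and hold the same match, so that site is counted more than once. Counted by gene, the core occurs in 4 of 20 higher genes, 1 of 8 lower genes and 2135 of 27025 genes in all. A single arm, AGAACA or its complement TGTTCT, occurs in 19.0% of all promoters, in 17.9% of those of higher genes and in 25% of those of lower genes. A match is a description of the sequence, not a bound site or a cause. The matches of 4 genes are printed with flanking bases from RefSeq, each read along the strand of the gene, with the match in capitals: *Sgk1* at chr10:21993661-21993755 on the plus strand, where the match starts at position -189 from the transcript start, *Mt1* at chr8:94178957-94179045 on the plus strand, *Ctla2a* at chr13:60936754-60936842 on the minus strand and *Crabp1* at chr9:54764521-54764609 on the plus strand.
Sgk1: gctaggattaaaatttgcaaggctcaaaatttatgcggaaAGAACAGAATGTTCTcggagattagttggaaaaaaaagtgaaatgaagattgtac
Mt1: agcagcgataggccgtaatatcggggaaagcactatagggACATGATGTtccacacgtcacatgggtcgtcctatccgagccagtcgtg
Ctla2a: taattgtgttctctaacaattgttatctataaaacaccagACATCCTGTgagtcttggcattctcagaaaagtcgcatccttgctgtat
Crabp1: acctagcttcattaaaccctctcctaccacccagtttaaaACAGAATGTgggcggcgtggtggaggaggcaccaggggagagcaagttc

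Some values may hold reads of other genes. GENCODE M21, a later annotation than the one used for counting, places another gene over 16 of the 37, and the 3′ end that the libraries sample lies inside another gene for 6: *Tgm2* in *Rprd1b*, *Zfp697* in *Hsd3b3*, *Tenm4* in *C230038L03Rik*, *Timp3* in *Syn3*, *Itga7* in *Mettl7b* and *Ctla2a* in a pair of unnamed gene models. The strand setting of the counting is not named, and the article's general statement on default settings would mean counting without strand, so reads of the overlapping genes cannot be told apart. *Mt1* and *Mt2*, *Ly6a* and *Ly6c1*, and *Aldh1a1*, *Ctla2a* and *Klra4* with their close relatives share sequence, and how the counting split shared reads is not known.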

How the data were processed

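RNA from 11 cultures and 20 tumors was sequenced from the 3′ ends of transcripts. The authors trimmed reads with Trim Galore 0.6.5, aligned them with STAR 2.6.1d to GRCm38 and deposited featureCounts gene counts for the Ensembl 75 annotation, as raw integers for 39179 genes. The strand setting is not named, and the article states in general that defaults applied where nothing else is given.

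CPM values and all statistics were computed here from these counts. Genes that reached 0.5 CPM in 3 or more of the 11 cultures were kept, scaled with TMM factors and fitted over 4 group means in edgeR 4.0.16 (R 4.3.3). The quasi-likelihood test of the interaction was adjusted by Benjamini-Hochberg over all genes tested, and calls required an adjusted p under 0.05 with a linear fold of 1.5 or more. The culture minus tumor difference was tested in the same way over all 31 samples. Effects within a genotype are estimates with 95% intervals from the same fit. The procedure was tested on simulated data, where changes of the smaller size tried went uncalled.

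Alternatives were DESeq2 1.42.0, limma-voom (limma 3.58.1), DESeq2 size factors, other filters and minimum folds, the replicate number as a block, and each culture left out in turn. The article names DESeq2 for its own test.

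Named genes are all called genes, with values in every culture for the 12 most positive and 10 most negative, *Nr3c1*, 13 fixed genes, the 6 next by adjusted p, up to 3 others per list, and up to 3 per direction for the culture minus tumor difference. The gene lists are those reported with medians. Samples, genes and lists were chosen with earlier results of these data known. Promoters came from a RefSeq table. Not every gene chosen by these rules is reported here.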

Additional observations from a re-analysis of the deposited data

Results flagged for a closer look

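Every called interaction contrasts parental with GR KO cells in their response to GC, and each is listed here because that difference passed a test of its own in edgeR. The fitted value for *Ptprf* was 6.13, over a group with 0 counts that supports only an interaction of at least 3.09. The other higher values were 5.81 for *Aldh1a1*, 4.29 for *Ctla2a*, 3.70 for *Mt2*, 3.64 for *Rgs2*, 3.14 for *Tsc22d3*, 3.00 for *Per1*, 2.79 for *Adam12*, 2.76 for *Ppl*, 2.67 for *M1ap*, 2.66 for *Sorbs2* and 2.56 for *Adra1b*. Next came 2.45 for *Sphk1*, 2.35 for *Fam46b*, 2.09 for *Akap12*, 2.07 for *Zfp697*, 2.00 for *Mt1* and *Msln*, 1.91 for *Adamts1*, 1.61 for *Gclc*, 1.58 for *Ly6c1* and 1.45 for *Ly6a*. The rest were 1.33 for *Lox* and *Tgm2*, 1.30 for *Sgk1*, 1.23 for *Syk*, 1.16 for *Tmem37* and 0.92 for *Klra4*. The lower values were -3.41 for *Prkcb*, -2.88 for *Spink2*, -1.86 for *Tnnt2*, -1.85 for *Crabp1*, -1.50 for *Id2*, -1.49 for *Tenm4*, -1.28 for *Lbh*, -1.23 for *Itga7* and -1.12 for *Timp3*.

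The interaction itself differed between culture and tumor for 16 genes, of which up to 3 per direction are listed here. The differences were 3.54 for *Ctla2a*, 3.08 for *Sorbs2*, 2.63 for *Mt2*, -3.33 for *Sbsn*, -3.53 for *Prkcb* and -5.34 for *Kcnab2*. The *Kcnab2* value is a fitted one that rests on 1 count in GR KO cells with DMSO and 19 with GC. At a floor of 3 counts its culture interaction was -3.20 in place of -4.37, and the difference, not computed at the floor, ran from -7.21 to -4.71 across alternatives.

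A pair of tumors stood apart from the other 4 of their groups. *Prkcb* was at 60.4 CPM in GR KO tumor 4 with GC. *Sorbs2* at 16.4 CPM and *Ctla2a* at 46.2 CPM were both in parental control tumor 2, so they are not separate events. Chance alone sets apart a sample in about 1 in 20 groups, and groups of 2 or 3 cultures were too small for this check.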

How the results depend on the processing

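The direction of all 37 interactions was the same in each of the 18 alternative fits, but 22 of the 37 calls were lost in at least 1 of them. The 15 genes called in every fit were *Tsc22d3*, *Per1*, *Rgs2*, *Mt2*, *Aldh1a1*, *Ctla2a*, *Adam12*, *M1ap*, *Sorbs2*, *Sphk1*, *Fam46b*, *Adamts1*, *Gclc*, *Msln* and, on the lower side, *Tnnt2*. DESeq2 called 128 genes, including all 37, and the share of higher genes was 58.6% against 75.7%. Without a filter on low counts, 64 genes were called. With DESeq2 size factors the count was 38, with a filter at 2 CPM 41, with limma-voom 43, with a minimum fold of 2 it was 36 and with none 37. The filter of 2 samples, chosen after seeing the data, gave 36.

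Leaving out 1 culture gave between 17 and 43 calls. The lowest counts were 17 without parental GC culture 2 and 19 without parental GC culture 1, where the culture left alone is assumed to vary like the other groups. There were 22 calls without GR KO GC culture 2, and 23 without parental DMSO culture 1, GR KO DMSO culture 1 or GR KO DMSO culture 2. The highest count, 43, came without GR KO GC culture 1. The calls of 13 genes were lost in at least 9 of these 11 fits: *Syk*, *Ptprf*, *Itga7*, *Id2*, *Ly6c1*, *Lbh*, *Tgm2*, *Zfp697*, *Klra4*, *Akap12*, *Timp3*, *Crabp1* and *Ppl*. *Lox* was lost in 8 of them, *Tenm4* in 6 and *Sgk1* in 3. Another 6 genes lost the call only without a parental GC culture, *Tmem37* and *Spink2* without culture 1 and *Prkcb*, *Mt1*, *Adra1b* and *Ly6a* without culture 2. *Mc1r*, an uncalled melanocyte marker with an interaction of -0.57, changed sign without parental GC culture 2, to 0.53, over a range of -6.0 to 0.53. Fewer samples remain in each of these fits, and beyond that the cause was not tested.

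With the replicate number as a block, 27 interactions were called, of which 24 were among the 37. Cultures with the same number did not deviate together: across 15 such pairs the correlation averaged 0.0127 (-0.361 to 0.436), against -0.00713 across 30 pairs with different numbers, so the numbers do not pair the cultures.

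The culture minus tumor count was 16, and it was 168 with DESeq2 (31 higher and 137 lower in culture), 29 with limma-voom, 25 with the block and 10 to 20 when a culture was left out, 10 of them without GR KO GC culture 2. The cause was not tested.

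Depth limits genes near the floor. A group without counts, as for *Ptprf* or *Zbtb16*, gives bounds in place of fold changes, and genes present only in parental cells with GC do not enter a test that asks for 3 samples. Where both GR KO groups are at 0, as for *Zbtb16*, a looser filter gave an adjusted p of 1 and no information on the interaction.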
